A study of Rattus norvegicus with 15 samples.

Results

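The comparison described here sets 5 liver samples of rats given PF-04923503 at 10 mg/kg against 5 liver samples of rats given vehicle, which are 10 of the 15 samples of the series. The labels call PF-04923503 an ACC inhibitor, ACC being acetyl-CoA carboxylase. The rats were male Sprague Dawley rats, 7 weeks old at the start, that ate a diet with 59% of its calories from fat and received a daily oral dose for 6 weeks, in vehicle the carrier alone (0.5% methylcellulose). The remaining 5 samples came from rats dosed at 30 mg/kg on the same diet and schedule, and their values are set beside the others where they help. All 3 groups shared the diet, so no group here stands for rats on ordinary chow, and the labels do not say that each numbered sample came from a different rat. The spread behind each p-value is therefore that between samples, and it may be technical. Total RNA of frozen liver was hybridised to an Affymetrix rat 3′ expression array, 1 array per sample, and the deposited values are on a log2 scale. The question the comparison answers is which hepatic transcripts differ between dosed and vehicle livers, in and beyond the lipid genes.

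ACC joins bicarbonate to acetyl-CoA and so makes malonyl-CoA, the building block of fatty acid synthesis and a brake on the entry of fatty acids into mitochondria. The liver expresses a cytosolic form, which feeds lipogenesis, and a form at the outer mitochondrial membrane. Lipogenic genes are switched on by the transcription factors SREBP-1c and ChREBP, and the liver also makes plasma proteins, clears drugs, stores iron and divides its metabolic tasks along the axis from the portal to the central vein.

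The tissue label was checked against defining genes. All 26 measured hepatocyte markers passed the filter on low values, and their summed level on the linear scale lay between 474641 and 496743 in vehicle and between 477371 and 489599 at 10 mg/kg, so the groups overlapped. Of the markers on the array for bile duct cells and for neutrophils and mast cells, 2 of 11 and 3 of 14 passed. Array medians lay between 6.08 and 6.12 and pairwise correlations between 0.989 and 0.996. Vehicle sample 1 had the lowest mean correlation with its own group, 0.991, and results that rest on it are marked below.

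Of 9540 genes tested, the 10 values of 233 genes did not overlap between the groups, which is 2.44% of all genes. In 93 of them (0.975%) every 10 mg/kg sample was above every vehicle sample, and in 140 (1.47%) every 10 mg/kg sample was below. After quantile normalization these counts were 132 and 119, so that 52.6% of the non-overlapping genes were higher in place of 39.9%, and 89 of the 93 and 99 of the 140 remained. The excess of lower genes thus turned with the scaling. No gene named by the rule given with the processing reversed its sign under any alternative. All of these genes had non-overlapping groups, so leaving out a sample could not have reversed them. At an unadjusted p under 0.05 (limma), 1267 genes (13.3%) differed, 428 higher (4.49%) and 839 lower (8.79%), and 45.4% of such genes were higher after quantile normalization in place of 33.8%. After Benjamini-Hochberg adjustment over all genes, limma called 10 (0.105%), of which 6 rose (0.0629%) and 4 fell (0.0419%).

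**Figure D1:**
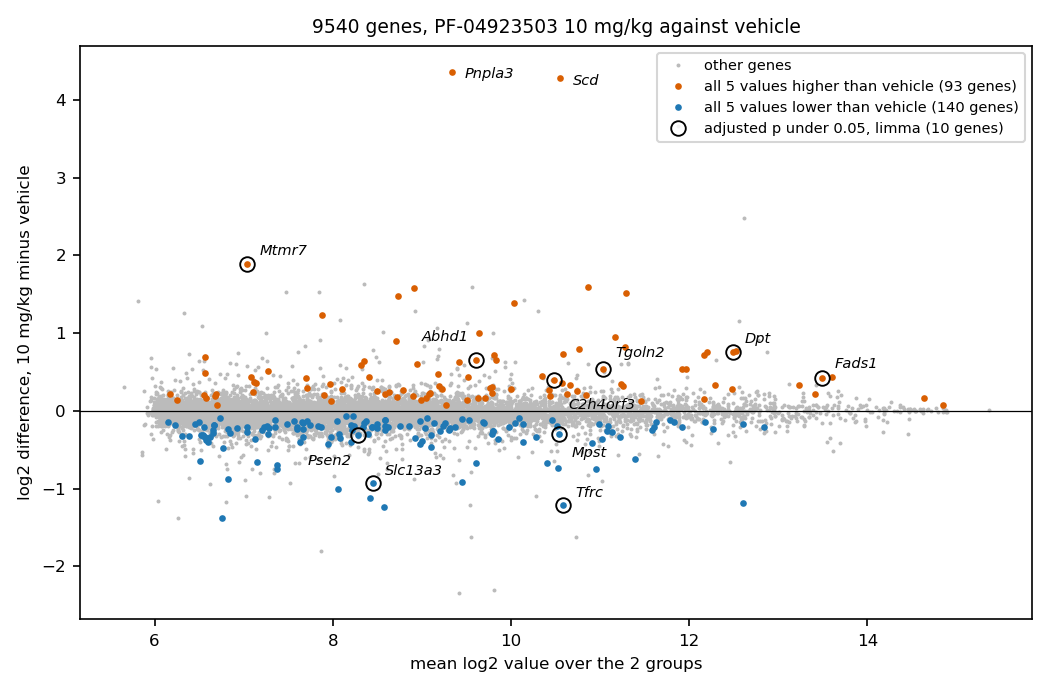
Log2 difference in mean, 10 mg/kg minus vehicle (vertical axis), against the mean log2 value of both groups (horizontal axis) for 9540 genes, 1 point per gene. Orange and blue points are the 93 and 140 genes whose values do not overlap, rings mark the 10 called genes, and Pnpla3 and Scd stand above 4 on the log2 scale.

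Most of these differences were small. The median difference of the 93 higher genes was 0.34 on the log2 scale (range 0.07 to 4.37). That of the 140 lower genes was -0.23 (range -1.37 to -0.06), against a median of -0.02 over all genes. With the latter below 0, more of all genes were lower than higher in mean, and after quantile normalization it was -0.006. Counts of list members lower in mean, given below, include this shift of all genes. At least a 1.5-fold difference was seen in 27 higher and 18 lower genes, and at least a 2-fold difference in 9 and 6. The space left between the groups exceeded 0.1 on the log2 scale in 37 higher and 23 lower genes, so for the rest the nearest samples of the groups almost touched.

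Among the 6 genes that limma called higher, Mtmr7, a phosphatase of the myotubularin family that removes a phosphate from phosphoinositides, had the largest difference. In the order of the sample numbers, its log2 values were 6.51, 5.63, 5.93, 5.45 and 6.92 in vehicle and 7.75, 8.15, 8.38, 7.79 and 7.84 at 10 mg/kg. The lowest dosed sample was 0.84 above the highest vehicle sample, and the fold was 3.72 (95% confidence interval 2.27 to 6.09; limma adjusted p = 0.0439). Its vehicle mean lay at the filter threshold of 6.10, so the vehicle level is close to the dim end of the array, and at 30 mg/kg the mean was 7.43 ± 0.76 (SD, n = 5). Of 53 measured genes of phosphoinositide metabolism, 1 other, Pi4k2b, a phosphatidylinositol 4-kinase, had non-overlapping higher values (1.16-fold, limma adjusted p = 0.292), and 0 had non-overlapping lower values. With Mtmr7 the shares of the list were 3.77% higher and 0% lower, beside 0.975% and 1.47% of all genes.

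Dpt encodes dermatopontin, a small protein of the extracellular matrix. Its 10 mg/kg values were 12.86, 12.83, 12.82, 12.86 and 12.98, a spread of only 0.06 (SD, n = 5), and all exceeded the vehicle values of 12.00, 12.08, 12.26, 11.79 and 12.40. It rose 1.70-fold (1.42 to 2.03), whereas 31 of the 37 genes of the stellate cell and matrix list to which it belongs were lower in mean. Abhd1, of the alpha/beta hydrolase family, rose 1.57-fold, from 9.28, 9.20, 9.49, 9.03 and 9.42 to 9.71, 10.25, 9.80, 9.89 and 10.04, and its second probe set also separated the groups with a smaller difference of 0.38 against 0.65. Tgoln2, a protein that cycles between the trans-Golgi network and the cell surface, rose 1.45-fold on its brightest probe set, and its other probe sets gave 0.39 and 0.13 in place of 0.53 with overlapping groups. The remaining risers were small and tight. Fads1, the delta-5 desaturase of polyunsaturated fatty acids, had values of 13.28, 13.24, 13.38, 13.16 and 13.36 in vehicle and 13.61, 13.76, 13.70, 13.75 and 13.71 at 10 mg/kg. C2h4orf3, still named as an open reading frame, had 10.37, 10.24, 10.32, 10.23 and 10.26 and 10.61, 10.67, 10.71, 10.75 and 10.69. In these genes the groups lay 0.22 and 0.24 apart, beside an SD of the dosed samples of 0.06 and 0.05 (n = 5 each).

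Tfrc, the transferrin receptor through which cells take up iron, was the gene that fell most among the called genes. Vehicle samples had 12.07, 10.91, 11.29, 10.78 and 10.89, with sample 1 above the rest, and the 10 mg/kg samples 10.05, 9.84, 9.94, 10.19 and 9.87. The groups lay 0.59 apart, the widest separation of any lower gene, and vehicle was 2.31-fold higher (1.75 to 3.07; limma adjusted p = 0.0427). At 30 mg/kg, in a comparison that shares the vehicle samples, the mean was 9.95 ± 0.17 (SD, n = 5), beside 9.98 ± 0.14 at 10 mg/kg. The 250 bases before its start on the minus strand (chr11:81690319-81690568, GRCr8, RefSeq) are shown because it was the largest called fall. Capitals mark a CCAAT box and TACGTG, the core of a site for hypoxia-inducible factors, 1 match each.
Tfrc: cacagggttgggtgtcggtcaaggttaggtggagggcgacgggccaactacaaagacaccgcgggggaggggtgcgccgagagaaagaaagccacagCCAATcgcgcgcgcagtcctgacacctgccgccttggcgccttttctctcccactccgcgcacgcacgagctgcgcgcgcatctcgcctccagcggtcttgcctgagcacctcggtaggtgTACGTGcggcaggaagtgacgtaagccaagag
TACGTG, searched on both strands, was present in 4.13% of 121 promoters of lower genes, 1.28% of 78 promoters of higher genes and 3.54% of 8027 promoters of tested genes, so its presence here is a description of the sequence.

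Slc13a3, the sodium-coupled carrier of dicarboxylates such as succinate, fell from 9.14, 9.46, 8.57, 8.74 and 8.64 to 8.19, 8.19, 7.55, 8.03 and 7.94, and vehicle was 1.90-fold higher (1.5 to 2.42). Psen2, a catalytic subunit of gamma-secretase, had tight 10 mg/kg values, 8.13, 8.12, 8.10, 8.09 and 8.15, below vehicle values of 8.35, 8.38, 8.53, 8.40 and 8.52. Of the 18 measured genes of gamma-secretase and intramembrane proteolysis Psen2 was the only one whose groups did not overlap (5.56%, beside 1.47% lower of all genes). Mpst, the mitochondrial and cytosolic sulfurtransferase that makes persulfides from 3-mercaptopyruvate, fell from 10.76, 10.60, 10.65, 10.70 and 10.72 to 10.48, 10.38, 10.36, 10.32 and 10.38. At 30 mg/kg the means of the 4 falling genes, against the same vehicle samples, were 9.95 ± 0.17 (Tfrc), 8.20 ± 0.16 (Slc13a3), 8.15 ± 0.10 (Psen2) and 10.40 ± 0.09 (Mpst; SD, n = 5 each). The number of called genes rested on single samples. Leaving out vehicle sample 2 or 4, any one of 10 mg/kg samples 2 to 5 or 30 mg/kg sample 1 gave 0 calls by limma. Leaving out vehicle sample 1, or sample 4 of the 30 mg/kg group, gave 1 call. Leaving out vehicle sample 5 gave 21 calls and leaving out 30 mg/kg sample 2 gave 26.

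Outside the lipid lists, the largest non-overlapping higher genes after Mtmr7 belonged to varied functions and were not called. Ugt2b1, an enzyme that joins glucuronic acid to drugs and steroids, had vehicle values of 11.27, 7.65, 10.52, 10.21 and 10.68, with sample 2 far below the rest, and 10 mg/kg values of 11.38, 11.75, 11.46, 11.80 and 11.89. Its mean was 3.02-fold that of vehicle (1.48 to 6.13; limma adjusted p = 0.205), yet the nearest samples were only 0.12 apart. Ddhd1, a phospholipase A1 that acts on phosphatidic acid, had 8.38, 7.83, 8.64, 6.41 and 9.35 and 9.96, 9.47, 9.53, 10.08 and 9.44, with vehicle sample 4 the lowest and vehicle sample 5 within 0.09 of the dosed samples. Fabp5, a carrier of fatty acids in the cytosol, was cleaner: vehicle values of 8.17, 7.70, 8.05, 7.98 and 8.09 lay close together and all 10 mg/kg values of 9.18, 9.58, 9.77, 10.01 and 8.82 lay at least 0.65 above them (2.78-fold, 1.67 to 4.62; limma adjusted p = 0.119). Tor3a, an ATPase of the torsin family in the endoplasmic reticulum, stood at 2.35-fold the vehicle level, with vehicle values of 6.92, 6.77, 7.92, 7.02 and 7.70 and dosed values of 8.33, 8.86, 8.44, 8.33 and 8.53. Its 30 mg/kg mean was 7.54 ± 0.86 (SD, n = 5), nearer the vehicle mean of 7.26 ± 0.51 than the 10 mg/kg mean of 8.50 ± 0.22.

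Further down the higher side, C6, a component of the complement membrane attack complex, had vehicle values of 10.77, 10.96, 10.70, 10.52 and 10.50 and 10 mg/kg values of 12.19, 11.61, 11.32, 11.96 and 11.14. Cavin3, a coat protein of caveolae, averaged 11.69 ± 0.18 against 10.87 ± 0.41, and Bst2, the antiviral tether protein tetherin, 11.17 ± 0.18 against 10.37 ± 0.41 (SD, n = 5 each). Aspg, an asparaginase, was 1.64-fold, the zinc importer Slc39a4 1.52-fold and Slc22a5, which carries carnitine into cells, 1.51-fold higher than in vehicle. Sall1, a zinc finger transcription factor, was at 1.55-fold, Secisbp2l, a protein related to the binding protein of selenoprotein messages, at 1.54-fold, and Mtarc1, a molybdenum enzyme of the outer mitochondrial membrane, at 1.45-fold. Limma adjusted p-values of these 9 genes lay between 0.0943 and 0.148, none past the threshold. Ky, a muscle protein, at 1.61-fold, and Odad4, a protein of ciliary dynein arms, at 1.40-fold, were near the floor in vehicle, with means of 6.22 ± 0.13 and 6.33 ± 0.13 (SD, n = 5 each).

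**Figure D2:**
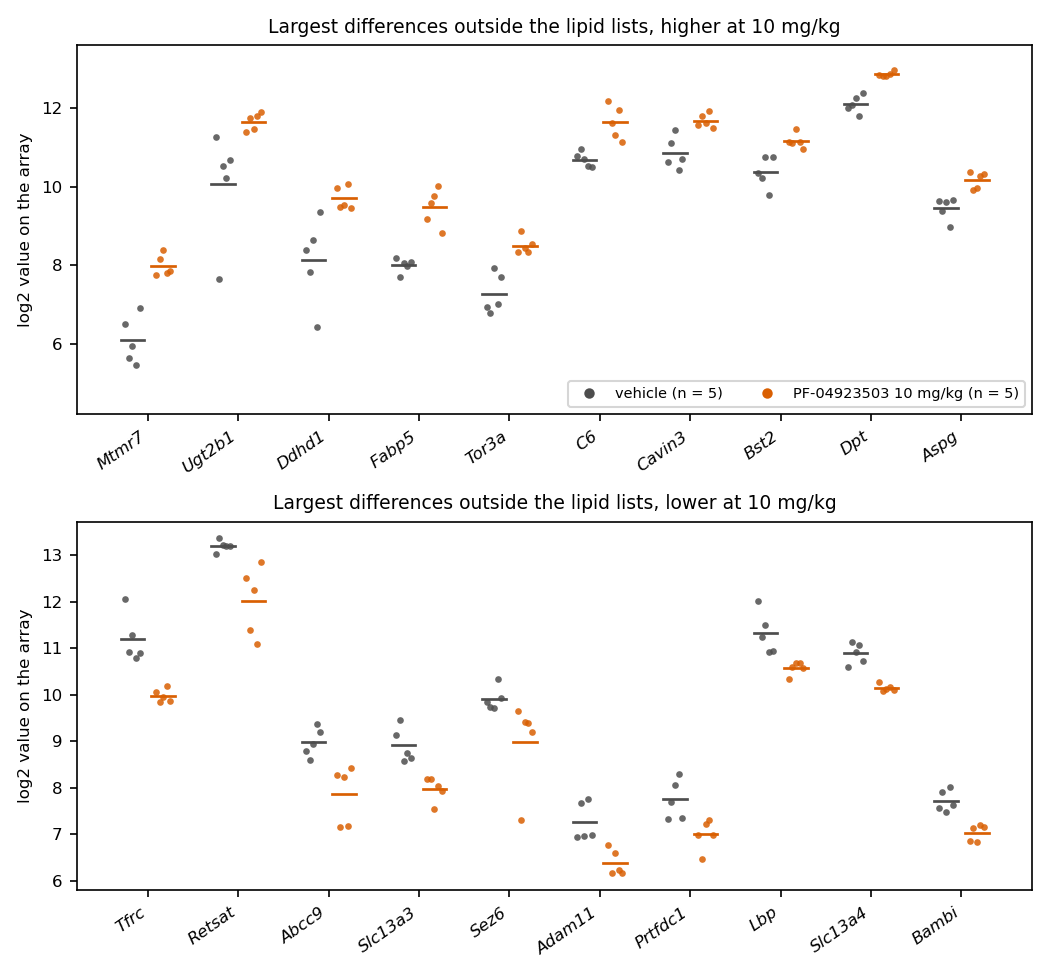
Log2 value in each sample (vertical axis) for the 10 higher and the 10 lower non-overlapping genes of largest difference outside the lipid lists, with vehicle in grey and 10 mg/kg in orange (n = 5 each), points for samples in order of their number and bars for group means. Fabp5, Dpt and Tfrc show a clear space between the groups, whereas Ugt2b1, Ddhd1 and Sez6 have groups that nearly touch.

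On the lower side, Retsat, which saturates a double bond of retinol, was among the brightest genes, at 13.04, 13.37, 13.22, 13.20 and 13.19 in vehicle. Its 10 mg/kg values of 12.51, 11.38, 12.25, 11.09 and 12.85 were scattered, so that vehicle was 2.27-fold higher (1.33 to 3.89; limma adjusted p = 0.205), and at 30 mg/kg the mean was 11.74 ± 0.80 (SD, n = 5). Abcc9, the sulfonylurea receptor subunit of potassium channels, had 8.80, 8.59, 8.95, 9.36 and 9.20 in vehicle and 8.28, 7.15, 8.24, 7.19 and 8.42 at 10 mg/kg. Its other probe set gave a smaller difference of -0.58 against -1.12 with overlapping groups. Sez6, a membrane protein best known from neurons, was lowest in 10 mg/kg sample 2 at 7.31, while the other dosed samples lay between 9.19 and 9.66 and vehicle between 9.71 and 10.33.

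Lbp, the plasma protein that presents bacterial lipopolysaccharide to its receptors, had vehicle values of 12.02, 11.24, 11.51, 10.92 and 10.93 and 10 mg/kg values of 10.34, 10.59, 10.69, 10.67 and 10.58. The groups lay 0.23 apart and vehicle was 1.68-fold higher (1.28 to 2.21; limma adjusted p = 0.132). Bambi, a decoy receptor of the TGF-beta family, had 7.57, 7.92, 7.49, 8.02 and 7.63 and 6.86, 7.12, 6.83, 7.20 and 7.15, 0.29 apart, and Dll1, a ligand of Notch receptors, 6.94, 6.72, 6.96, 6.89 and 6.63 and 5.88, 6.38, 6.18, 6.49 and 6.00. Thumpd1, a partner protein in tRNA acetylation, was 1.60-fold higher in vehicle, Adam11, a catalytically inactive member of the ADAM family, 1.84-fold and Ackr4, a chemokine scavenger receptor, 1.58-fold (limma adjusted p = 0.161, 0.103 and 0.15). The smaller ones in this set included Ypel3 (1.38-fold) and Reep6, which shapes endoplasmic reticulum membranes (1.33-fold). Prtfdc1, Wfdc2 and Itgb2 overlapped between the groups after quantile normalization.

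The lipid lists held 23 of the 233 genes. Of their 240 measured genes 18 (7.50%) were higher and 5 (2.08%) lower without overlap, beside 0.975% and 1.47% of all genes. Scd and Pnpla3 had the largest differences of all genes, and their vehicle values were widely spread, at 6.82, 7.44, 8.94, 7.16 and 11.71 for Scd, the delta-9 desaturase, and 5.92, 7.00, 7.27, 5.78 and 9.78 for Pnpla3, a lipid droplet acyl hydrolase. Vehicle sample 5 was the highest vehicle sample in both, and at 10 mg/kg the values were 12.16, 12.22, 12.61, 13.57 and 12.89 and 11.45, 11.41, 11.10, 12.24 and 11.39. Beside the lipogenic genes, Hsd17b13, a lipid droplet dehydrogenase, averaged 12.19 ± 0.11 against 11.65 ± 0.30, and Plin3, a droplet coat protein, 9.16 ± 0.17 against 8.26 ± 0.41 (SD, n = 5 each). The groups of Hsd17b13 came within 0.0056 of each other and overlapped after quantile normalization. Acsl5, which activates fatty acids with coenzyme A, stood at 1.69-fold and the omega hydroxylase Cyp4a1 at 1.65-fold the vehicle level. The 19 measured genes of cholesterol synthesis and the 18 of bile acid synthesis and transport held 0 genes whose groups did not overlap. Over all genes the share was 2.44%, at which such short lists often hold none.

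The 5 lower lipid genes (2.08%, near the 1.47% of all genes) were Abcg8, Abcg5, Acsm3, Lrp1 and Smpd1. Abcg5 and Abcg8, the partner chains of a transporter that moves sterols into bile, were lower together. Abcg5 had 9.29, 9.83, 9.02, 8.97 and 8.87 in vehicle and 8.19, 7.33, 8.28, 7.71 and 8.26 at 10 mg/kg, and Abcg8 7.34, 8.08, 7.55, 7.23 and 7.04 and 6.12, 5.30, 6.66, 6.08 and 6.20, with 10 mg/kg sample 2 the lowest and vehicle sample 2 the highest in both. The mean of Abcg8 at 10 mg/kg lay below the filter threshold, so its fold of 2.59 (vehicle over 10 mg/kg, 1.55 to 4.35) is measured against a dim level. The genes lie head to head on chromosome 6 of GRCr8 in RefSeq, Abcg8 starting at 15717730 on the minus strand and Abcg5 at 15717936 on the plus strand. The 205 bases between the starts (chr6:15717731-15717935, plus strand) are shown because both genes share them, with capitals marking a TATA box (TATAAA) and a CCAAT box read on the opposite strand, 1 match each.
Abcg8-Abcg5: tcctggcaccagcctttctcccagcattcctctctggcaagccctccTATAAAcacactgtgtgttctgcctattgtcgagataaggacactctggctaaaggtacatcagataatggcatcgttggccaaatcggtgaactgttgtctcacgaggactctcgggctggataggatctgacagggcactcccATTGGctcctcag
Searched on both strands of the 250 bases before each start, TATAAA was present in 14.1% of 78 promoters of higher genes, 4.96% of 121 of lower genes and 6.52% of 8027 of tested genes, and CCAAT in 33.3%, 40.5% and 36.1%. The E-box CACGTG was present in 5.13%, 12.4% and 8.58%, and the sterol regulatory element TCACNCCAC in 1.28%, 0.826% and 0.959%.

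Read by function, the non-overlapping genes were spread unevenly over 103 gene lists in 9 classes. Of 604 genes of other metabolism 2.15% were higher and 2.32% lower, and of 185 genes of drug metabolism and ABC transporters 2.70% and 3.24%, beside 0.975% and 1.47% of all genes. A gene in several lists counts in each class, so lipid genes such as Abcg5 and Abcg8 are counted again here. Lists outside the lipid class held 38 higher and 74 lower genes, of which 32 and 70 were in no lipid list. Of 168 plasma protein and defence genes 2.98% were higher and 1.19% lower. In the class of protein synthesis, traffic and degradation, higher genes were 0.286% of 1397 and lower genes 1.29%, and among genes of RNA, chromatin and transcription 0.117% of 856 and 1.52%. The share of lower genes in both was close to the 1.47% of all genes, and it was the higher genes that were few. After quantile normalization the first class had 7 higher and 14 lower genes and the second 1 and 10. Of the 233 genes, 108 were in no list, 43 higher and 65 lower, so that these functions cover only a part of the pattern.

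**Figure D3:**
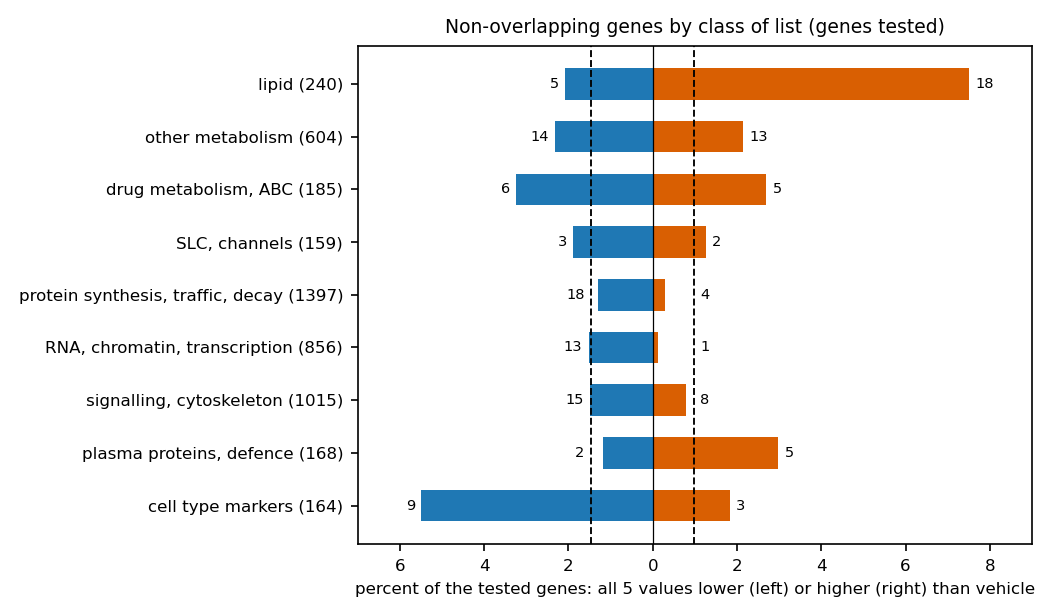
Share of tested genes, in percent, whose 5 values at 10 mg/kg are all higher (right, orange) or all lower (left, blue) than the 5 vehicle values, for 9 classes of gene lists, with the number of genes at each bar. Dashed lines mark the shares over all genes, 0.975% higher and 1.47% lower, and higher genes reach 7.50% in the lipid class. A gene in lists of several classes counts in each of them.

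Of 49 genes of glycolysis, glycogen and fructose metabolism, 5 were higher without overlap (10.2%, beside 0.975% of all genes) and 2 lower (4.08%, beside 1.47%). Limma called 0 of the 49, beside 0.105% of all genes. At an unadjusted p under 0.05 (limma), 11 were higher and 4 lower, beside 4.49% and 8.79% of all genes. Pklr, the liver pyruvate kinase, had 9.82, 10.19, 10.37, 10.21 and 10.55 in vehicle and 10.69, 10.87, 10.83, 11.36 and 11.02 at 10 mg/kg (1.65-fold, 1.21 to 2.26; limma adjusted p = 0.187). Pdhb, the beta chain of pyruvate dehydrogenase, had 11.19, 11.05, 11.12, 11.03 and 11.10 and 11.40, 11.33, 11.32, 11.38 and 11.64, and Pdha1, its alpha chain, named after its values were seen, 10.35, 10.22, 10.35, 10.26 and 10.30 and 10.54, 10.49, 10.55, 10.59 and 10.67. The means of both chains were thus close in their ratio to vehicle (1.24-fold and 1.21-fold, limma adjusted p = 0.2 and 0.074). Pdk1, a kinase that switches the same enzyme off, also had higher values, at 9.39, 9.17, 9.32, 9.14 and 9.49 and 9.67, 9.72, 9.68, 9.83 and 9.79 (1.35-fold; limma adjusted p = 0.119). The fifth was Phka1, a subunit of phosphorylase kinase (1.16-fold), and the lower genes were Ldhb, a lactate dehydrogenase chain (1.22-fold higher in vehicle), and Pgm2, a phosphoglucomutase (1.12-fold), all 3 named after their values were seen.

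Both enzymes of the glycerol phosphate shuttle, which carries reducing equivalents from cytosol to mitochondria, had non-overlapping higher values. Gpd2, the mitochondrial enzyme, had 6.60, 7.08, 7.27, 6.87 and 7.29 in vehicle and 7.67, 7.40, 7.50, 7.46 and 7.63 at 10 mg/kg, and Gpd1, the cytosolic one, named after its values were seen, 11.96, 12.08, 12.19, 12.12 and 12.24 and 12.38, 12.57, 12.26, 12.59 and 12.47. Neither passed the adjusted test (1.43-fold and 1.26-fold, limma adjusted p = 0.256 and 0.205). The NADPH suppliers Me1, the malic enzyme, and Pgd, of the pentose phosphate pathway, stood at 2.62-fold and 1.58-fold. The citric acid cycle, with 18 genes, had 0 non-overlapping genes, beside 2.44% of all genes, a share at which so short a list often holds none. Of 91 genes of the respiratory chain and ATP synthase 0 were higher and 1 (1.1%) lower, beside 0.975% and 1.47% of all genes. The lower one was the assembly factor Ndufaf8 (1.17-fold higher in vehicle, limma adjusted p = 0.0943). In the mitochondrial ribosome list 72 of 84 genes were lower in mean, with a median of -0.05 that was -0.04 after quantile normalization. Mrpl14 and Mrps25 did not overlap (2.38%, beside 1.47% lower of all genes). Mrps25 overlapped after quantile normalization.

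Of 27 genes of iron uptake, storage and export, 1 was higher without overlap (3.70%, beside 0.975% of all genes) and 2 were lower (7.41%, beside 1.47%). Id1, which responds to the BMP signals that also govern hepcidin, was the higher one (1.12-fold), and Tfrc and Lrp1, a receptor that takes up heme bound to hemopexin, were the lower ones. In mean 8 of the 27 were higher and 19 lower, with a median of -0.03. Hamp, which encodes the iron hormone hepcidin and was named after its values were seen, had vehicle values of 6.37, 8.92, 8.42, 13.34 and 13.18, of which sample 4 lay above the lowest of the dosed values of 13.85, 13.70, 13.30, 13.93 and 13.77. Heme synthesis and breakdown had 13 of 17 genes lower in mean and a median of -0.12, which was -0.07 without vehicle sample 4. Alad, which forms porphobilinogen, was lower without overlap, from 11.74, 11.82, 11.58, 11.71 and 11.70 to 11.36, 11.46, 11.51, 11.47 and 11.53 (1.18-fold higher in vehicle; limma adjusted p = 0.205). Fech, which inserts iron into the ring, and Alas2, the erythroid form of the first enzyme, both named after their values were seen, had log2 differences of -0.42 and -0.75 with overlapping groups. Alas2 is also among the blood, erythroid and platelet markers, of which 8 of 9 were lower in mean, with a mean log2 level of 7.94 to 8.56 in vehicle and 7.83 to 8.24 at 10 mg/kg, and their part in the result was not tested. In a bulk sample fewer cells of a type and less RNA per cell cannot be told apart.

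Of 32 genes of methionine, cysteine and sulfur metabolism, 0 were higher without overlap (beside 0.975% of all genes) and 2 lower (6.25%, beside 1.47%). The lower ones were Mpst and the sulfate carrier Slc13a4. In mean 18 of the 32 were higher and 14 lower, and the median of the list lay between -0.03 and 0.04 with 1 sample left out. Slc13a4 had 10.60, 11.14, 10.92, 11.07 and 10.72 in vehicle and 10.28, 10.08, 10.12, 10.17 and 10.11 at 10 mg/kg, 0.33 apart, and vehicle was 1.67-fold higher (1.32 to 2.11; limma adjusted p = 0.0943). It and Slc13a3 belong to 1 family of sodium-coupled carriers, and both were lower at both doses, with 30 mg/kg means of 10.04 ± 0.41 and 8.20 ± 0.16 (SD, n = 5 each). Gpx4, the glutathione peroxidase that repairs lipid peroxides, had values of 12.31, 12.42, 12.41, 12.50 and 12.30 in vehicle and 12.22, 12.14, 12.11, 12.21 and 12.09 at 10 mg/kg (1.18-fold higher in vehicle; limma adjusted p = 0.074), and its dim second probe set gave -0.04 against -0.24. The 25 NRF2 targets and thioredoxins held 0 non-overlapping genes, beside 2.44% of all genes, a share at which a short list often holds none.

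**Figure D4:**
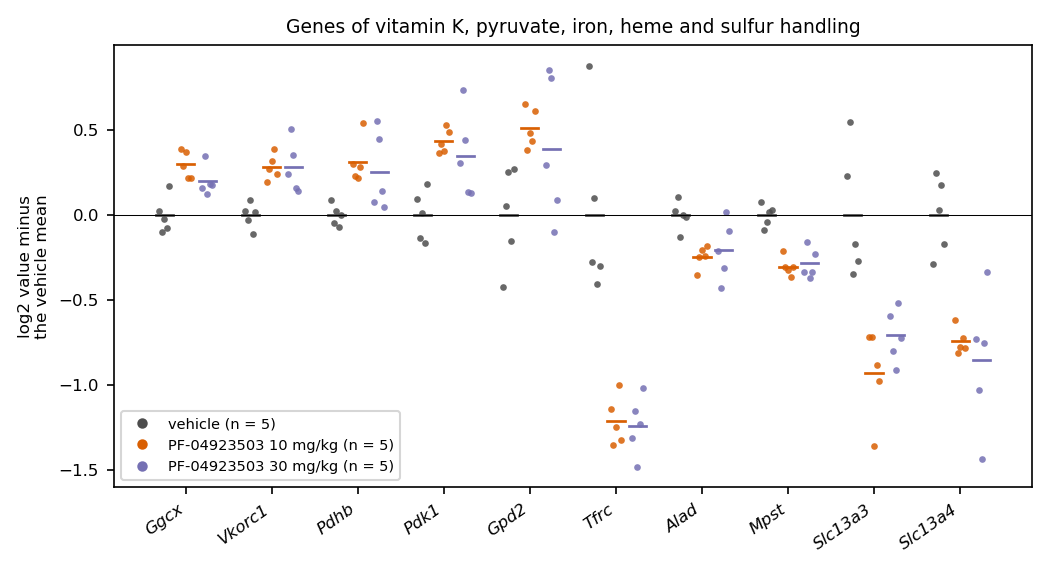
Log2 value minus the vehicle mean (vertical axis) in each sample for 10 genes of vitamin K, pyruvate, iron, heme and sulfur handling, with vehicle in grey, 10 mg/kg in orange and 30 mg/kg in purple (n = 5 each) and bars for means. Both dosed groups were compared with the same vehicle samples, and at 10 mg/kg all 5 points of each gene lie on 1 side of vehicle.

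Both enzymes of the vitamin K cycle had non-overlapping higher values. Ggcx, the carboxylase that completes clotting factors, had 9.65, 9.52, 9.59, 9.54 and 9.79 in vehicle and 10.01, 9.91, 9.99, 9.84 and 9.84 at 10 mg/kg, and Vkorc1, the reductase that regenerates its cofactor and the target of warfarin, had 12.37, 12.31, 12.43, 12.22 and 12.36 and 12.54, 12.61, 12.66, 12.73 and 12.58. Ggcx stood at 1.23-fold (1.13 to 1.35; limma adjusted p = 0.074) and Vkorc1 at 1.22-fold (1.10 to 1.35; limma adjusted p = 0.122), and at 30 mg/kg they averaged 9.82 ± 0.09 and 12.62 ± 0.15 (SD, n = 5 each). They were the only members of the 25 coagulation and fibrinolysis genes whose groups did not overlap (8%, beside 0.975% higher of all genes). Of the 25, 17 were lower in mean, with a median of -0.02, near that of all genes, and 0.01 without vehicle sample 1. In the complement list only C6 separated the groups (3.7%, beside 0.975% higher of all genes). In mean 6 of the 27 genes were higher and 21 lower, with a median of -0.14 that was -0.08 without vehicle sample 1. Among 63 genes of the interferon response and antigen presentation, Bst2 and Tapbp, a chaperone of peptide loading, were higher without overlap (1.74-fold and 1.19-fold). That is 3.17% of the list, beside 0.975% of all genes, and 0 were lower. The median of the list changed sign with 1 sample left out (-0.04 without vehicle sample 1, 0.09 without vehicle sample 2).

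Drug metabolising genes differed one by one. Of 28 measured P450 genes of families 1 to 3, only Cyp2c7 was higher without overlap (1.12-fold) and 0 were lower. That is 3.57% of the list, beside 0.975% of all genes. Gsta1, a glutathione transferase, had 13.40, 13.32, 13.22, 13.28 and 13.31 and 13.62, 13.53, 13.46, 13.49 and 13.50, and Maoa, monoamine oxidase A, 9.74, 9.62, 9.67, 9.62 and 9.71 and 9.86, 9.87, 9.79, 9.98 and 10.03 (1.16-fold and 1.17-fold; limma adjusted p = 0.0983 and 0.119). The mean of Maoa at 30 mg/kg was 9.67 ± 0.09, beside 9.67 ± 0.05 in vehicle and 9.90 ± 0.10 at 10 mg/kg (SD, n = 5 each). Of 7 glucuronosyltransferases 5 were higher in mean, with a median of 0.20 that was 0.11 without 10 mg/kg sample 1 and 0.35 without vehicle sample 1. Of 23 ABC transporters 18 were lower in mean, with a median of -0.12. Without overlap 4 (17.4%) were lower and 1 (4.35%) higher, beside 1.47% and 0.975% of all genes. Besides Abcg5, Abcg8 and Abcc9, Abca2 was lower without overlap (1.19-fold higher in vehicle, named after its values were seen), and Abcd3, which imports fatty acids into peroxisomes, was higher (1.19-fold). Slc29a1, a nucleoside carrier, was 1.31-fold higher in vehicle.

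Among the 2216 genes of gene expression and protein handling 30 were lower without overlap (1.35%), no more than the 1.47% of all genes, and 5 were higher. After quantile normalization 24 were lower and 8 higher, and 20 of the 30 remained. In the list of histone and chromatin modifiers 0 of 175 were higher (beside 0.975% of all genes) and 7 (4%) lower without overlap (beside 1.47%), the median being -0.05, or -0.03 without 10 mg/kg sample 5. Kdm3a, a histone demethylase, had 8.16, 8.32, 8.15, 8.34 and 8.11 in vehicle and 7.90, 7.90, 8.08, 7.90 and 7.81 at 10 mg/kg (1.23-fold higher in vehicle; limma adjusted p = 0.0983). Cbx6, of the Polycomb complexes, was 1.28-fold and Baz2b, a bromodomain protein, 1.15-fold higher in vehicle. Cbx6 overlapped after quantile normalization, as did the lower genes Hdac1 and Dmap1. Smyd2, a lysine methyltransferase outside the list, was higher without overlap (1.35-fold). Hdac1, Dmap1 and Smyd2 were named after their values were seen. Of 122 genes of ribosome biogenesis and RNA polymerase, 91 were lower in mean, with a median of -0.05 that was -0.03 after quantile normalization. Without overlap 0 were higher and 4 (3.28%) lower, beside 0.975% and 1.47% of all genes. Polr2e, a subunit shared by the RNA polymerases, had 9.40, 9.48, 9.35, 9.49 and 9.37 and 9.25, 9.14, 9.10, 9.12 and 9.28 (1.18-fold; limma adjusted p = 0.0983), and Pes1, a ribosome assembly factor, was 1.11-fold higher in vehicle. Polr3g and Ddx23 overlapped after quantile normalization. Cytosolic ribosomal proteins were lower in mean in 39 of 42 genes, with a median of -0.06 that was -0.04 without vehicle sample 1 and -0.07 after quantile normalization. In none of them did the groups separate, beside 2.44% of all genes.

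In the secretory pathway, Srp19, of the signal recognition particle, and Spcs1, of signal peptidase, were 1.20-fold and 1.12-fold higher in vehicle. Of the 35 genes of their list 32 were lower in mean, with a median of -0.08 that was -0.06 after quantile normalization. Without overlap 0 were higher and 2 (5.71%) lower, beside 0.975% and 1.47% of all genes. Selenos, a selenoprotein of the endoplasmic reticulum, had 10 mg/kg values of 9.64, 9.63, 9.61, 9.62 and 9.66 below vehicle values of 9.97, 9.76, 10.08, 9.81 and 10.04 (1.23-fold; limma adjusted p = 0.0983). Of 292 ubiquitin ligases and deubiquitinases, 0 were higher and 3 lower without overlap (1.03%), fewer than the 1.47% of all genes. Among the 3 was Cul2, the cullin of the von Hippel-Lindau ligase, with 8.22, 8.12, 8.02, 8.24 and 8.13 and 7.87, 7.82, 7.66, 7.88 and 7.81 (1.26-fold; limma adjusted p = 0.0696). Eif4ebp3, an inhibitor of cap-dependent translation, was 1.24-fold higher in vehicle. Spcs1 and the proteasome assembly factor Pomp overlapped after quantile normalization. The integrated stress response (20 genes), cytosolic heat shock proteins (43), autophagy (36), circadian clock (21), nuclear receptors (31) and DNA replication and cell cycle (42) had 0 non-overlapping genes each. Over all genes the share was 2.44%, at which short lists often hold none.

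Signalling genes gave mostly single small differences. In insulin signalling Akt2, the kinase isoform of metabolic tissues, was 1.12-fold the vehicle level (limma adjusted p = 0.247). Rictor, a subunit of the mTORC2 complex that activates Akt2, was 1.10-fold higher in vehicle (limma adjusted p = 0.29). They were the only members of 42 to separate, each 2.38% of the list, beside 0.975% higher and 1.47% lower of all genes. Akt2 had 2 further probe sets with differences of 0.07 and 0.03 against 0.16. Among 42 genes of the TGF-beta, BMP and activin pathways, Id1, a target of BMP signalling, was higher (1.12-fold), and Bambi and Tgfbi, a matrix protein induced by TGF-beta, were lower (1.62-fold and 1.15-fold higher in vehicle). Without overlap 2.38% of that list were thus higher and 4.76% lower, beside 0.975% and 1.47% of all genes. Notch4 was 1.10-fold the vehicle level, whereas Dll1 was 1.56-fold higher in vehicle (1.29 to 1.89; limma adjusted p = 0.0747). In purine and pyrimidine metabolism, Cad, which starts pyrimidine synthesis, was 1.17-fold and Nt5e, an ecto-nucleotidase, 1.14-fold higher in vehicle. Of its 33 genes 0 were higher and 2 (6.06%) lower without overlap, beside 0.975% and 1.47% of all genes. The 17 genes of AMPK and energy sensing held 0 non-overlapping genes, beside 2.44% of all genes, and so short a list often holds none at that share.

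Hepatocytes near the portal vein and those near the central vein express different genes, and the mean levels of these lists differed from vehicle in opposite directions at 10 mg/kg. Of 21 periportal genes 19 were higher in mean, with a median log2 difference of 0.14, beside -0.02 over all genes. The mean level of the list was between 11.23 and 11.47 in vehicle and between 11.49 and 11.63 at 10 mg/kg. The groups thus did not overlap but nearly touched, at 11.4745 in vehicle sample 5 and 11.4923 in 10 mg/kg sample 3. This mean includes Cyp17a1, described below, and the list was not averaged without it. At 30 mg/kg, samples 1, 4 and 5 lay within the vehicle range (11.44, 11.36 and 11.42) and samples 2 and 3 above it (11.62 and 11.54). Hsd17b13 and Sfxn1, a mitochondrial serine carrier, separated the groups (9.52% of the list, beside 0.975% of all genes). Sfxn1 had 10.61, 10.51, 10.42, 10.45 and 10.46 in vehicle and 10.89, 10.69, 10.80, 10.87 and 10.89 at 10 mg/kg (1.26-fold, 1.14 to 1.40; limma adjusted p = 0.0755). Cyp17a1, a steroid hydroxylase named after its values were seen, had the largest difference in the list, with 8.33, 6.58, 7.21, 6.65 and 6.64 and 8.46, 9.51, 8.05, 7.75 and 9.32, vehicle sample 1 lying among the dosed samples. Its mean was 2.90-fold the vehicle mean (1.63 to 5.15; limma adjusted p = 0.139). Alb, albumin, at the bright end of the array and named after its values were seen, had a difference of 0.01.

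Of 17 pericentral genes 14 were lower in mean, with a median of -0.26, which was -0.17 without vehicle sample 2. The mean level of the list was 11.15 to 11.34 in vehicle and 10.88 to 11.27 at 10 mg/kg, and 10 mg/kg sample 1 lay among the vehicle samples. Glul, glutamine synthetase, an enzyme of the cells around the central vein, had 11.94, 11.85, 11.31, 11.51 and 11.88 in vehicle and 11.12, 10.67, 11.23, 11.18 and 11.21 at 10 mg/kg, and vehicle was 1.53-fold higher (1.15 to 2.05; limma adjusted p = 0.223). Cyp2e1, the ethanol-inducible P450, had 14.36, 14.46, 14.10, 14.32 and 14.30 and 14.37, 14.03, 13.87, 13.86 and 14.04, and the receptor Nr1i3 (CAR) 8.07, 7.94, 8.31, 8.99 and 8.26 and 8.38, 7.67, 7.21, 7.36 and 8.0. In both, 10 mg/kg sample 1 lay within the vehicle range, as it did in Aldh1a1, a retinal dehydrogenase. Axin2, a target of Wnt signalling, was not lower (0.01), nor were the transporter Slco1b2 (0.09) and the ornithine aminotransferase Oat (0.09). These genes other than Glul were named after their values were seen, no member of either list was called by limma, and at 30 mg/kg the means of Glul and Sfxn1 were 11.30 ± 0.46 and 10.63 ± 0.15 (SD, n = 5 each).

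**Figure D5:**
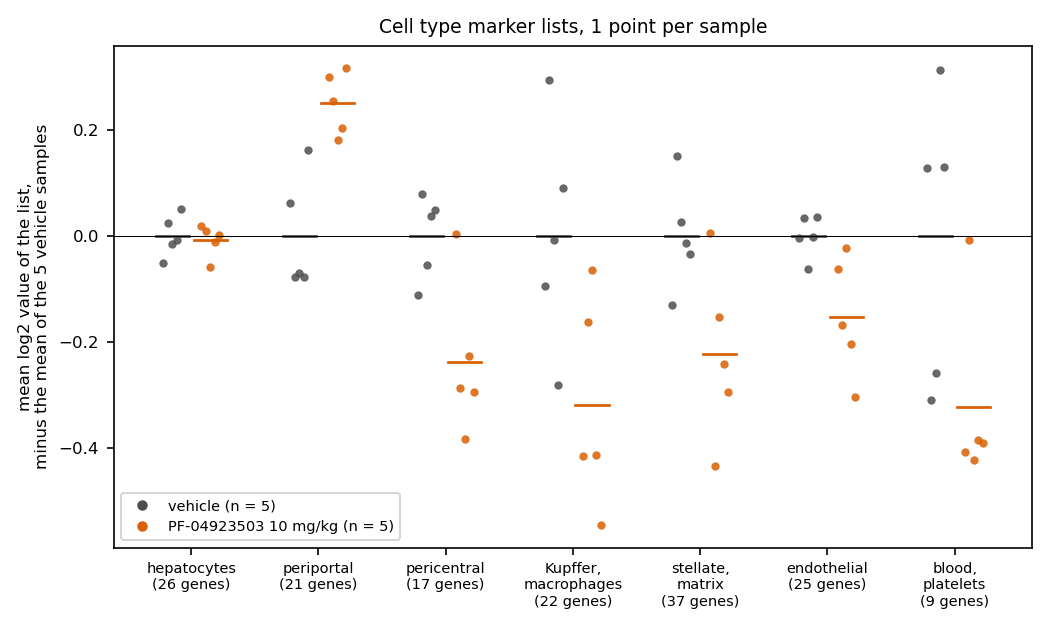
Mean log2 value of each marker list minus the mean of the vehicle samples (vertical axis) for 7 cell type lists, with 1 point per sample, vehicle in grey and 10 mg/kg in orange (n = 5 each), and bars for means. The periportal list is higher in all 5 dosed samples, though the lowest barely exceeds vehicle sample 5. The pericentral list is below all vehicle samples in 4 of 5.

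Markers of macrophages, endothelial cells and stellate cells were lower in mean, whereas the 9 lymphocyte markers that passed had a median of -0.03, near the -0.02 of all genes. Of the 2 bile duct markers that passed 1 was lower and 1 higher in mean, and the 3 neutrophil and mast cell markers had a median of -0.33. Of 22 Kupffer cell and macrophage markers 21 were lower in mean (median -0.33) and 0 separated the groups. Of 25 endothelial markers 24 were lower (median -0.20), with Pecam1 and Emcn separated (8%) and Pecam1 overlapping after quantile normalization. Of 37 stellate cell and matrix markers 31 were lower (median -0.22), with 4 lower without overlap (10.8%) and Dpt higher (2.7%). Over all genes these shares were 1.47% lower and 0.975% higher. Summed linear levels overlapped in all 3: 13331.8 to 19098.9 in vehicle and 11445.6 to 15102.4 at 10 mg/kg for macrophages, 10099.3 to 11848.8 and 8574.4 to 10979.1 for endothelial cells, and 20878.8 to 27206.9 and 19984.8 to 24316.8 for stellate cells. Col4a1, a basement membrane collagen, had 7.86, 7.91, 7.85, 7.77 and 7.79 in vehicle and 7.70, 7.22, 7.42, 7.53 and 7.28 at 10 mg/kg, and Igfbp7, a secreted binding protein, 10.41, 10.61, 10.39, 10.48 and 10.38 and 10.33, 9.96, 10.15, 10.07 and 10.08. Several lower genes outside these lists are also known from leukocytes: Itgb2, the beta-2 integrin chain (1.34-fold higher in vehicle), Fgr, a Src family kinase (1.40-fold), and Arhgap45 (1.14-fold). The part of these cells in the lower values was not tested.

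The general hepatocyte markers had a median of 0.01, with 11 lower and 15 higher in mean. The only ones whose groups did not overlap were Asgr1 and Asgr2, the chains of the asialoglycoprotein receptor by which hepatocytes clear glycoproteins from plasma. They were 7.69% of the list, beside 1.47% lower of all genes. Asgr1 had 11.78, 11.71, 11.59, 11.86 and 11.59 in vehicle and 11.51, 11.41, 11.54, 11.56 and 11.48 at 10 mg/kg, and Asgr2 12.34, 12.26, 12.21, 12.26 and 12.17 and 12.14, 12.13, 12.13, 12.02 and 12.12. Both differences were small (1.15-fold and 1.10-fold higher in vehicle; limma adjusted p = 0.196 and 0.235), and both genes overlapped after quantile normalization. Lrp1, another receptor that clears plasma particles, was 1.19-fold higher in vehicle, but its second probe set gave 0.08 against -0.26.

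Some of these values depend on which probe set stood for the gene. Of the 233 genes, 64 had at least 1 other filtered probe set, 76 in all. Of those probe sets 18 also separated the groups in the same direction, and 31 genes had one that differed in sign or was smaller by more than 1.5 times. Of the 76, 12 had the opposite sign. Over 20826 named probe sets without a filter, 163 separated the groups higher and 186 lower (1.68%).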

How the data were processed

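Hepatic RNA of 15 samples, 5 per group by their titles, was measured on 1 array each. The authors deposited log2 values of 31099 probe sets, normalised between arrays. The tools listed, per the submitters' processing notes, are RMA, GCRMA 2.12.1 and limma 2.14.7. Their roles are not given in these notes, and a different background correction would change the folds of dim genes. The number of arrays limits the precision.

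Control probe sets (57) were left out, and 20826 probe sets have exactly 1 gene symbol in the platform annotation, 436 several and 9780 none. Symbols were updated through Entrez identifiers to RefSeq (GRCr8), which held a current entry for 20758. A probe set was kept if at least 5 of its 15 values exceeded the median of all values (6.10), and the brightest kept probe set stood for a gene, which left 9540 genes. Limma 3.58.1 (R 4.3.3) was fitted on all 15 arrays with group means and moderated variances, with Benjamini-Hochberg adjustment over all genes and a threshold of 0.05. Intervals cover 95%. The procedure was tested on simulated data. Besides the test, genes were described by whether the 5 values at 10 mg/kg all lay above or all below the 5 vehicle values.

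Genes named are all those called, the 20 largest non-overlapping higher and lower differences outside the 9 lipid lists, and up to 3 non-overlapping genes per list. Others are said to be named after their values were seen. The groups, the 103 gene lists and the rules were chosen with earlier results of these data known. Promoter sequences are RefSeq's for GRCr8, the 250 bases before each start, matched by symbol for 8027 of the 9540 genes. Alternatives were 2 filters, 2 ways to treat several probe sets of a gene, quantile normalization, median centring, a fit on the 10 arrays alone, another variance model, the replicate number as a block and each sample left out. The block is not used for the main values, since same-numbered samples did not deviate together.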

Additional observations from a re-analysis of the deposited data

Results flagged for a closer look

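In 27 of 292 groups of 5 samples, 1 sample stood apart from the other 4 by Dixon's criterion, counting 136 named genes at both levels and the marker lists. The criterion sets apart about 1 in 20 independent groups of normal values. The named genes were chosen because their groups do not overlap, and they share the same samples. The count above therefore cannot be set against that share. The values below are log2 values, and no explanation was tested.

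In vehicle, sample 1 was the high one in Cxcl12 (13.19), Lrp1 (11.50), Rnd2 (9.65) and Tgfbi (12.16) and the low one in Slc39a4 (7.95). Vehicle sample 3 was high in Pde8a (9.12) and low in Odad4 (6.10) and Tapbp (8.08). Vehicle sample 4 was high in Akr1a1 (12.14) and Eif4ebp3 (9.57), and vehicle sample 5 was low in Pigu (8.56).

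At 10 mg/kg, sample 2 was low in Sez6, at 7.31 beside 9.19 to 9.66 in the others, in Glul (10.67), Jam2 (7.58) and Tapbp (8.66), and high in Kcnj11 (6.83). The same sample had the highest mean of the blood, erythroid and platelet markers, 8.24 beside 7.83 to 7.86 in the others. Sample 3 was low in Ipo4 (8.64), Plin3 (8.86) and St8sia3 (8.02) and high in Pcyt2 (11.54) and Zfp874b (7.51). Sample 4 was low in Asgr2 (12.02) and Rictor (8.15), sample 5 was high in Dpt (12.98) and Pdhb (11.64), and sample 1 was low in Pes1 (7.53).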

How the results depend on the processing

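The 10 genes called by limma were 3 with no filter on low values and 0 when every named probe set was tested without a filter, an alternative chosen after seeing the data, where 163 were higher and 186 lower without overlap and 2140 had an unadjusted p under 0.05. A replicate block left 0 genes called by limma and 1212 at an unadjusted p under 0.05. Same-numbered samples of vehicle and 10 mg/kg correlated in their deviations at -0.017 to 0.101, and 2 of 5 correlated best with their own number, so the numbers do not pair the samples. With 1 sample left out, 0 to 26 genes were called, 93 to 178 were higher and 140 to 302 lower without overlap, and 984 to 1395 had an unadjusted p under 0.05. Fewer samples make separation of the groups easier by construction. Under the other alternatives tried, the 9 to 14 calls, 93 to 132 higher and 119 to 163 lower genes stayed within 1.5 times the main counts. No gene named by the rule reversed its difference under any alternative. With a sample left out this was fixed in advance, since the rule names only genes whose groups do not overlap. The 10 called genes had limma adjusted p-values of up to 0.139. Signals near the filter threshold limit the folds of Mtmr7 and Abcg8 and of other dim genes, among them Dll1, Notch4, Phka1 and Arhgap45. A group mean lay below the threshold in 2 higher and 2 lower non-overlapping genes.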

Other observations

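Many large differences came from genes whose groups overlapped. Of 46 genes with at least a 2-fold difference, 31 had overlapping values, 19 higher and 12 lower at 10 mg/kg. The remaining 9 higher and 6 lower ones did not overlap. Over all genes only 2.44% did not overlap, so separation was more frequent among these 46 than over all genes. None of the 31 was called by limma. All genes in this section were named after their values were seen. Sult2a6, a sulfotransferase, Irs3, an insulin receptor substrate of rodents, and Prlr, the prolactin receptor, stood at 3.02-fold, 2.87-fold and 2.44-fold the vehicle level (limma adjusted p = 0.266, 0.142 and 0.289). Irs3 had vehicle values of 6.74, 6.14, 6.93, 5.65 and 8.11 and 10 mg/kg values of 8.0, 9.05, 7.72, 8.59 and 7.82. Ccnd1, cyclin D1, had 6.86, 9.90, 9.07, 9.66 and 9.22 and 10.29, 9.96, 9.53, 10.48 and 10.09, and Epha3, an ephrin receptor near the floor in vehicle, 4.91, 5.75, 6.59, 5.62 and 7.09 and 7.04, 7.15, 7.01, 7.03 and 7.16. The dosed values of Epha3 lay within a narrow range while its vehicle values were scattered.

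On the lower side, Mt2A, a metallothionein that binds zinc and copper, had vehicle values of 12.65, 11.29, 11.41, 11.55 and 10.78 and 10 mg/kg values of 10.90, 9.91, 10.35, 9.26 and 9.16. Vehicle was 3.07-fold higher (1.63 to 5.80; limma adjusted p = 0.159), with 10 mg/kg sample 1 just above the lowest vehicle sample. Serpina7, the thyroxine-binding globulin, had 11.46, 10.87, 10.07, 9.62 and 9.79 and 8.20, 9.31, 10.10, 7.36 and 8.70, and Nfe2, a transcription factor of erythroid cells and platelets, 6.14, 7.96, 7.32, 7.36 and 5.97 and 5.67, 5.43, 5.43, 6.09 and 5.28. Fmo1, a flavin monooxygenase, and Abca8, a lipid transporter, were 2.13-fold and 2.16-fold higher in vehicle (limma adjusted p = 0.166 and 0.143). Lox, the enzyme that cross-links collagen, had 8.09, 12.48, 10.99, 10.68 and 10.69 and 10.26, 4.40, 9.89, 8.52 and 8.15, and its large mean difference came with a wide spread in both groups.

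Ugt2b had values that fell into separate levels within groups. Vehicle samples had 13.99, 13.92, 8.95, 13.71 and 6.29, the 10 mg/kg samples 13.61, 13.95, 13.99, 13.75 and 13.97 and the 30 mg/kg samples 13.68, 13.63, 6.37, 6.36 and 6.47. The low and high levels in vehicle and at 30 mg/kg lay several log2 units apart, and all 5 samples at 10 mg/kg were at the high level.

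Probe sets without a gene symbol also held some that separated the groups. Of 3011 that passed the filter, 24 were higher and 25 lower without overlap (1.63%), beside 126 and 163 of 12598 named ones (2.29%), and the difference between these shares was not tested.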
